A study of Homo sapiens with 4 samples.

Results

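The genes described here are 46 cytokines, chemokines, receptors and regulators of the NF-kB pathway, taken by name from the 16813 genes listed in at least 1 of 4 RNA sequencing libraries. PC9 is an established human lung adenocarcinoma cell line whose growth depends on mutant EGFR, and PC9OR is a line derived from it that grows in the presence of osimertinib, an EGFR inhibitor. The labels call both lines wild type in genotype and differ in the phenotype, control for PC9 and osimertinib resistant for PC9OR. Each line was sequenced in 2 biological replicates as total RNA with a stranded kit, after culture in RPMI medium with fetal bovine serum. PC9OR is a single resistant line, so resistance and any other difference between the lines cannot be told apart, and the labels do not say whether the drug was in the medium at harvest. The only comparison in the design asks how expression in resistant cells differs from that in the parental cells.

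NF-kB is a family of dimeric transcription factors that inhibitor proteins hold in the cytoplasm until a receptor for interleukin 1, tumour necrosis factor or a microbial product starts a kinase cascade that destroys the inhibitor. The freed dimers bind kappa-B sites in promoters and enhancers of cytokine, chemokine, adhesion and survival genes. Several of their targets, among them the inhibitor NFKBIA and the deubiquitinase TNFAIP3, switch the pathway off again. Epithelial cancer cells can make many of these cytokines themselves, which act on the same cells and on leukocytes around them.

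The summed expected counts of a library, which are estimated reads per gene, lay between 23201307 and 32203998. To compare 1 gene between libraries, its count was scaled to a common library size and is given as CPM, and 3 counts, taken as the smallest value the depth can show, equalled between 0.0932 and 0.129 CPM. This floor covers counting error only. The replicates of PC9 differed from each other more than those of PC9OR did. Over the 40 members that could be tested, the median absolute log2 ratio between replicates, with 0.1 CPM added, was 0.36 in PC9 and 0.16 in PC9OR, against 0.28 and 0.11 over all tested genes. Part of the spread went with transcript length. The rank correlation across 11429 genes, which are not independent replicates, between length and the log2 difference was -0.46 for PC9 replicate 2 against replicate 1 and -0.40 for PC9OR against PC9. The tested members were shorter than most, with a median transcript length of 2477 bases against 2989 over all tested genes. The labels say biological replicate and give no further account of the cultures, so the p-values below measure only the spread between these libraries.

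The kappa-B letters are printed for the 6 chemokines of the CXCL8 cluster and for 4 other members. The chemokines share this promoter feature but differ in whether they were called, and the 4 other members were all called lower. RefSeq promoter windows (table on GRCh38.p14), from 250 bases before to 50 after each transcript start, were found for 37 of the 46 members, and 21 of these genes held the letters GGNNTTTCC on either strand. RELB, LIF, IL18, CCL5, CX3CL1, NFKBIE, CXCL16, CCL2 and CSF1 were not matched. Counted by window, 24 of the 55 member windows (43.6%) held the letters, against 1072 of 15588 windows of tested genes (6.88%) and 2198 of all 35116 windows (6.26%). The members were listed as NF-kB genes, so this share is a description of a list already known for such sites, and a match shows neither a bound site nor a cause. The windows below run 5′ to 3′ along the gene's strand, were placed on GRCh37 by a unique exact match, and show the matched letters in capitals. In NFKBIA, ICAM1 and BIRC3 the letters lie on the opposite strand and are printed as they read on the gene's strand.
CXCL8, chr4:74606181-74606217, plus strand, first capital 91 bases before the start: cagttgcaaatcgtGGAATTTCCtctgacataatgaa
CXCL1, chr4:74735018-74735054, plus strand, 78 before: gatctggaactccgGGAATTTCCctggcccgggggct
CXCL2, chr4:74964967-74965003, minus strand, 77 before: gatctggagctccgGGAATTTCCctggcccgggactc
CXCL3, chr4:74904462-74904498, minus strand, 78 before: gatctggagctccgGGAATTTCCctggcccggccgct
CXCL5, chr4:74864462-74864498, minus strand, 90 before: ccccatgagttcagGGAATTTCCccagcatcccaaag
CXCL6, chr4:74702292-74702328, plus strand, 89 before: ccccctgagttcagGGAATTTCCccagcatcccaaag
IL6, chr7:22766733-22766769, plus strand, 72 before: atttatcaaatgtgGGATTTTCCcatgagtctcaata
NFKBIA, chr14:35874014-35874050, minus strand, 81 before: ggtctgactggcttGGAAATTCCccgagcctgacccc
ICAM1, chr19:10381596-10381632, plus strand, 186 before: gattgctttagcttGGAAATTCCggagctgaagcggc
BIRC3, chr11:102188002-102188038, plus strand, 199 before: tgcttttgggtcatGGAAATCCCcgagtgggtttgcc
The letters occurred in 13 of the 21 matched members that were lower in PC9OR, in 6 of the 12 that were tested and not called, and in 2 of the 4 that were not tested.

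The members as a group were lower in PC9OR. They were chosen with earlier results of these data known, so the shares below describe the list and test nothing. A gene was called at a Benjamini-Hochberg adjusted p under 0.05 in edgeR's quasi-likelihood test over all 13148 tested genes, and every adjusted p below comes from that test unless another is named. Of the 46 members, 45 had a count in at least 1 library and 40 passed the filter on low counts. Among these 40, 25 were lower in PC9OR, a share of 62.5% where 20.8% of all tested genes were lower. By contrast 0 were higher, where 15.6% of all tested genes were, and the number of higher members was also 0 at an unadjusted p under 0.05 and with DESeq2's Wald test. With a change of more than 2-fold required as well, 22 members were lower (11.6% of all tested genes) and 0 were higher (6.13% of all tested genes). Counts by role below rest on few genes each and give no result for a single role. The median log2 fold change of the tested members, PC9OR over PC9, was -1.61, and that of all tested genes was 0.01. In bulk RNA, fewer cells that make a transcript and less of it per cell cannot be told apart.

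The direction was also visible in the single libraries. Both PC9OR libraries were below both PC9 libraries for 34 of the 40 tested members, where 38.2% of all tested genes showed this, and both were above for 3 members, TNFRSF1A, IL1R1 and IL32, where 39.6% of all tested genes did. The filter on low counts was passed in both libraries of both lines by 34 members, 23 of them called lower. It was passed only through PC9 by CXCL3, CCL5, TNF, RELB and TRAF1, of which TNF and TRAF1 were called, and only through PC9OR by IL32. Of the members with a mean of at least 10 CPM in PC9, 20 of 25 were called, and of those under 10 CPM 5 of 15 were, a split that was not tested. Offsets that remove the trend with transcript length left 24 members lower and a median of -1.70. With these offsets, 2741 of all 13148 tested genes were lower and 2290 were higher.

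**Figure D1:**
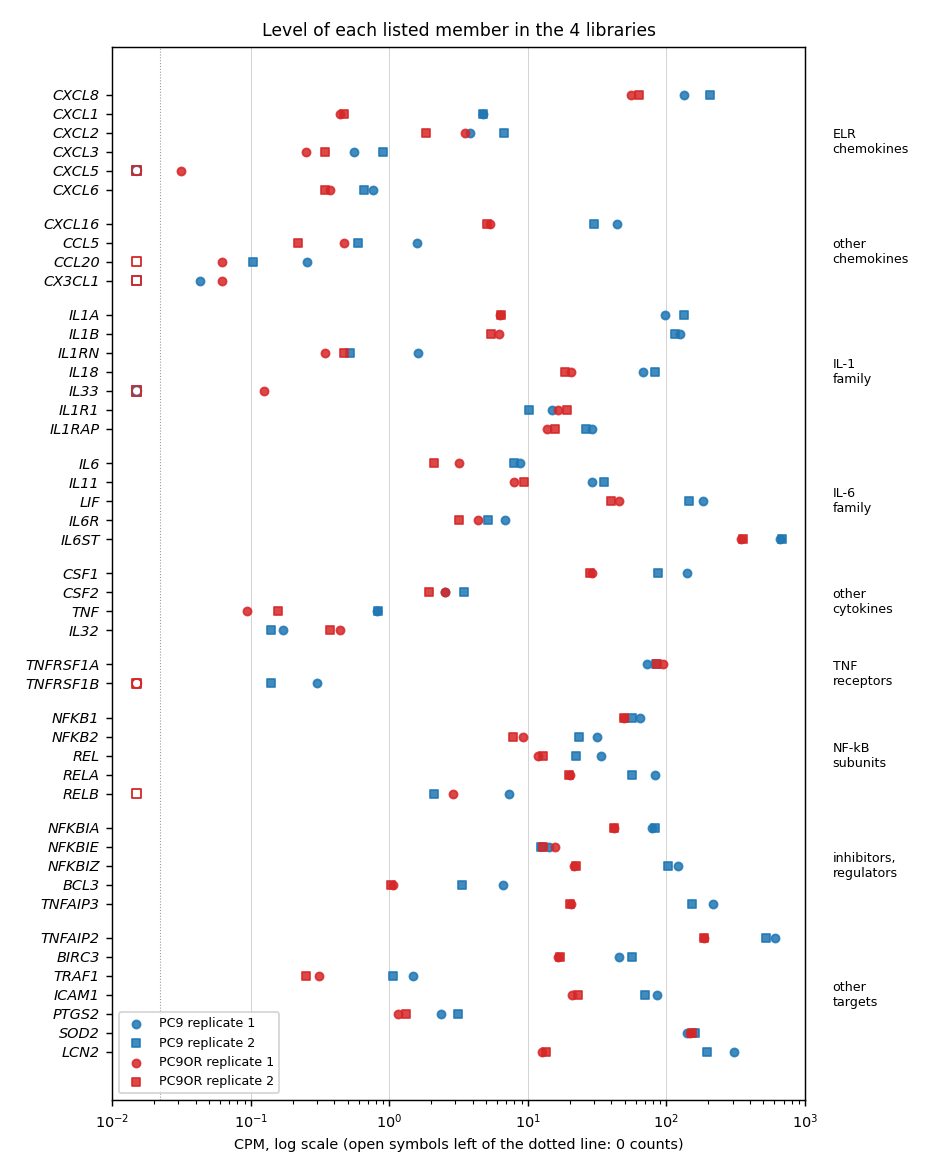
Level of each listed member in CPM on a log axis, grouped by role, with circles for replicate 1 and squares for replicate 2 of PC9 (blue) and PC9OR (red). Open symbols at the left edge are libraries with 0 counts. The red symbols lie left of the blue ones for most genes, by the widest gap for IL1A, IL1B and LCN2, and among tested members overlap them for SOD2, NFKBIE and RELB.

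The 6 ELR chemokines draw neutrophils through CXCR1 and CXCR2 and lie together on chromosome 4 between 74606236 and 74964913 (GRCh37). Among the 5 tested, 2 were called lower, where 20.8% of all tested genes were, and the median log2 fold change was -1.29. CXCL8, interleukin 8, was the most abundant of them, at 135 and 206 CPM in PC9 and 55.7 and 63.6 CPM in PC9OR. The libraries of the lines did not overlap. It fell by 1.52 on the log2 scale (SE 0.227, edgeR adjusted p = 0.0113). CXCL1 measured 4.78 and 4.75 CPM in PC9 and 0.437 and 0.469 CPM in PC9OR, so the replicates of each line were nearly equal and far apart from the other line's. Its log2 fold change was -3.38 (SE 0.322, edgeR adjusted p = 0.00547), a 10.4-fold lower level. CXCL1 and CXCL8 were thus both called in the same cluster, and the difference between their falls was not tested.

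The neighbours CXCL2, CXCL3 and CXCL6 were all lower in both PC9OR libraries than in both PC9 libraries but missed the threshold. CXCL2 gave 3.80 and 6.69 CPM in PC9 and 3.53 and 1.84 CPM in PC9OR, with a log2 fold change of -0.97 (SE 0.461, edgeR adjusted p = 0.151). The replicates within a line differed nearly as much as the lines did, and CXCL2 was called with length offsets and a replicate block together (-1.35, adjusted p = 0.0345). Without a library its value ranged from -1.51 to -0.52, lowest without PC9OR replicate 1 and highest without PC9 replicate 2. CXCL3 had a log2 fold change of -1.29 (SE 0.539, edgeR adjusted p = 0.115) at levels of 0.901 CPM or less, and CXCL6 one of -0.98 (SE 0.467, edgeR adjusted p = 0.151) at 0.768 CPM or less. CXCL5 had a count in 1 PC9OR library only, at 0.0312 CPM, which is under the floor. CXCL1, CXCL2 and CXCL3 are close copies, with 5.33%, 10.1% and 5.26% of the 50-base words of their transcripts shared with another gene, so reads may have been divided between them. All 6 chemokines hold the same 9 capital letters before their start, as printed above, whether or not they were called.

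Of the 5 other chemokines, CXCL16, a membrane-bound ligand of CXCR6, was lower. Its levels were 43.7 and 30.0 CPM in PC9 against 5.37 and 5.03 CPM in PC9OR. The lower PC9 library was still several times above both PC9OR libraries, and the log2 fold change was -2.82 (SE 0.233, edgeR adjusted p = 0.00479). CCL5, which attracts T cells, was listed at 1.58 and 0.589 CPM in PC9 and 0.468 and 0.219 CPM in PC9OR. The difference was not called, at -1.63 on the log2 scale (SE 0.713, edgeR adjusted p = 0.126), and 15.6% of its 50-base words occur in another gene. The value of CCL5 rested on single libraries, being -2.20 without PC9 replicate 2 and -0.78 without PC9 replicate 1. The remaining 3 were at or near 0. CCL2 had 0 counts in every library, which at this depth allows up to 0.129 CPM. CX3CL1 reached no more than 0.0624 CPM in any library and CCL20 no more than 0.256 CPM.

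In the interleukin 1 family and its receptors, 4 of the 6 tested genes were lower, where 20.8% of all tested genes were. IL1B had the largest fall of any tested member. IL1B, the secreted form that needs caspase 1 for its maturation, was at 126 and 115 CPM in PC9 and 6.15 and 5.38 CPM in PC9OR. The lines were separated by far more than the replicates, with a log2 fold change of -4.38 (SE 0.146, edgeR adjusted p = 0.00167), or 20.9-fold. IL1B stood at rank 122 of the 13148 tested genes, counted from the lowest log2 fold change. IL1A, the alarmin that acts without cleavage, was at 98.4 and 133 CPM in PC9 and 6.31 and 6.38 CPM in PC9OR. It too had no overlap between lines, and it fell by 4.19 on the log2 scale (SE 0.201, edgeR adjusted p = 0.00249), or 18.2-fold. Both genes lie with IL1RN, the receptor antagonist, on chromosome 2 between 113531502 and 113891593 (GRCh37).

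IL1RN itself was low, with 1.62 and 0.520 CPM in PC9 and 0.343 and 0.469 CPM in PC9OR. PC9 replicate 1 alone was high, and the log2 fold change of -1.38 (SE 0.689, edgeR adjusted p = 0.167) was not called. It was -2.00 without PC9 replicate 2 and -0.36 without PC9 replicate 1. IL18, an interleukin 1 relative that induces interferon gamma in lymphocytes, had 67.2 and 82.4 CPM in PC9 and 20.5 and 18.6 CPM in PC9OR. The log2 fold change of IL18 was -1.94 (SE 0.152, edgeR adjusted p = 0.00457). IL33 was detected only in PC9OR replicate 1, at 0.125 CPM.

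Of the receptors of interleukin 1, 1 of 2 was lower. The signalling receptor IL1R1 was at 14.9 and 10.2 CPM in PC9 and at 16.6 and 19.0 CPM in PC9OR. Either PC9OR library exceeded the higher PC9 library, and the log2 fold change of 0.50 (SE 0.232, edgeR adjusted p = 0.141) was not called. It was called with offsets for transcript length (0.74, adjusted p = 0.0319), and was 0.79 without PC9 replicate 1 and 0.23 without PC9 replicate 2. IL1RAP, the accessory chain that IL1R1 needs for signalling, had 28.8 and 26.2 CPM in PC9 and 13.7 and 15.7 CPM in PC9OR. IL1RAP fell by 0.90 on the log2 scale (SE 0.148, edgeR adjusted p = 0.0134), and the call was lost without PC9OR replicate 1 (adjusted p = 0.102) or replicate 2 (adjusted p = 0.0549).

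**Figure D2:**
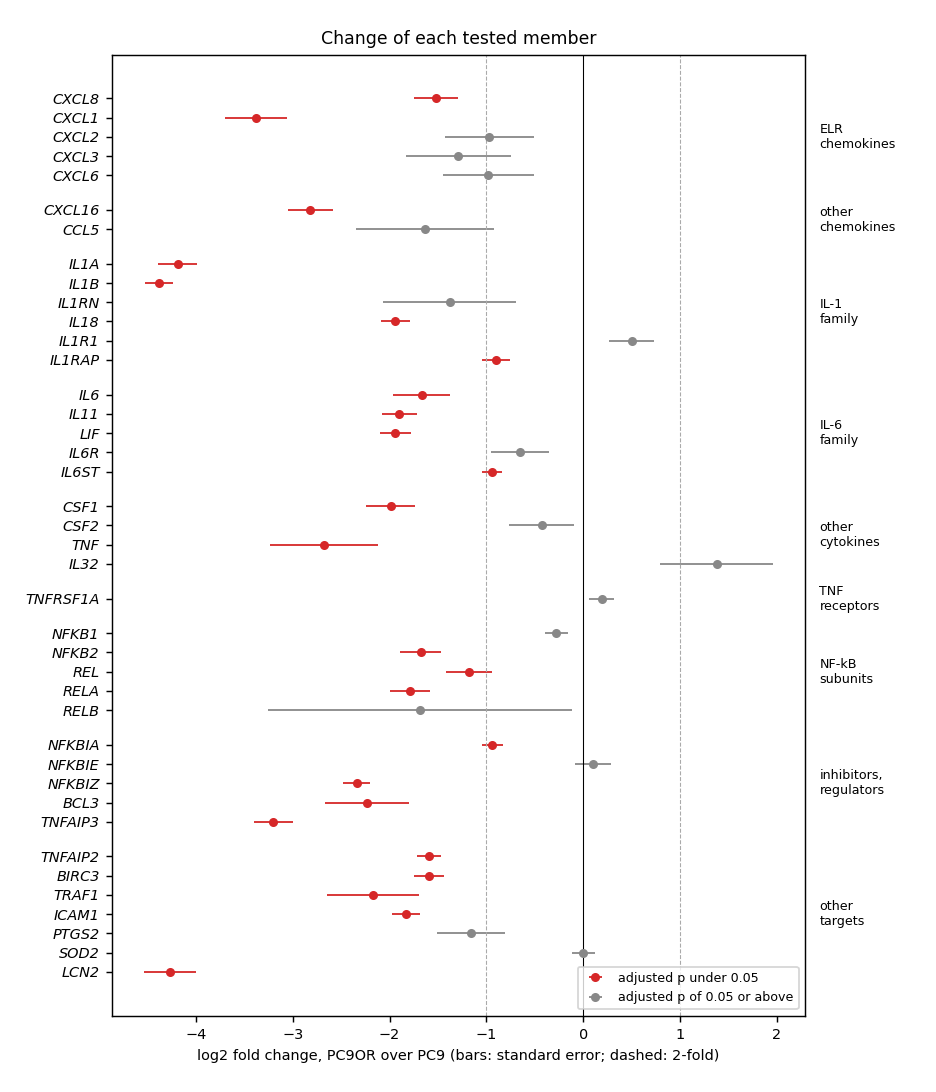
Log2 fold change, PC9OR over PC9, of the 40 tested members by role. Points are edgeR estimates, bars are their standard errors, red marks an adjusted p under 0.05 and dashed lines mark 2-fold. All 25 red points lie left of 0, from IL1RAP at -0.90 to IL1B at -4.38, and RELB has the widest bar.

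Among the interleukin 6 family, the 3 secreted ligands were lower, each by more than 2-fold. IL6 had 8.83 and 7.94 CPM in PC9 and 3.18 and 2.09 CPM in PC9OR, without overlap. Its log2 fold change was -1.67 (SE 0.298, edgeR adjusted p = 0.0158), and the call was lost without PC9OR replicate 2 (-1.40, adjusted p = 0.0780). LIF, which keeps several kinds of progenitor cell undifferentiated, was the most abundant of the 3, with 183 and 146 CPM in PC9 and 45.6 and 39.8 CPM in PC9OR. All 4 libraries followed their line, and LIF fell by 1.94 on the log2 scale (SE 0.163, edgeR adjusted p = 0.00479). IL11 was at 28.9 and 35.4 CPM in PC9 and 7.93 and 9.32 CPM in PC9OR, a log2 fold change of -1.90 (SE 0.179, edgeR adjusted p = 0.00547). LIF and IL11 therefore fell by nearly the same amount.

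These ligands share IL6ST, the gp130 chain that carries the signal, and IL6 also binds IL6R. IL6ST was the highest member in CPM, at 663 and 685 in PC9 and 347 and 357 in PC9OR. The difference was clear of the replicates but under 2-fold, at -0.94 on the log2 scale (SE 0.104, edgeR adjusted p = 0.00683). IL6ST has long transcripts, and with offsets for transcript length the value was -0.36 (adjusted p = 0.0794). Its call was also lost without PC9OR replicate 1 (adjusted p = 0.0612) or replicate 2 (adjusted p = 0.0547). IL6R was not called, with 6.78 and 5.13 CPM in PC9, 4.37 and 3.19 CPM in PC9OR and a log2 fold change of -0.65 (SE 0.298, edgeR adjusted p = 0.138).

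Of the other cytokines, CSF1, the growth factor of macrophages, and TNF were lower, and CSF2 and IL32 were not called. CSF1 had 140 and 86.5 CPM in PC9 and 29.2 and 27.9 CPM in PC9OR. Its PC9 replicates were spread widely but stayed above the PC9OR libraries, and it fell by 1.99 on the log2 scale (SE 0.253, edgeR adjusted p = 0.00846). TNF, an inducer of NF-kB, was scarce in both lines, at 0.810 and 0.832 CPM in PC9 and 0.0936 and 0.156 CPM in PC9OR. The PC9OR values are close to the floor. The log2 fold change of TNF was -2.68 (SE 0.559, edgeR adjusted p = 0.0227), and the call was lost without PC9OR replicate 1 (adjusted p = 0.138) or replicate 2 (adjusted p = 0.0851) and in DESeq2's Wald test (adjusted p = 0.0501). CSF2, the growth factor of granulocytes and macrophages, had a log2 fold change of -0.43 (SE 0.338, edgeR adjusted p = 0.346) around 1.94 to 3.47 CPM. IL32 was the member with the highest positive value, 1.38 (SE 0.585, edgeR adjusted p = 0.119), at no more than 0.437 CPM in any library.

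The receptors of TNF gave no call. TNFRSF1A, the receptor found on most cells, had 73.0 and 84.3 CPM in PC9 and 94.6 and 85.1 CPM in PC9OR, with a log2 fold change of 0.19 (SE 0.130, edgeR adjusted p = 0.285). TNFRSF1B, typical of lymphoid and endothelial cells, had 0.299 and 0.139 CPM in PC9 and 0 counts in PC9OR. With the floor of 3 counts taken over the 2 PC9OR libraries together, it was at least 4.48-fold lower there, a comparison without a test since the gene did not pass the filter. By kind of product, 11 of the 18 tested cytokine and chemokine ligands were more than 2-fold lower, with a median log2 fold change of -1.78. These ligands include the membrane-bound CXCL16 and the antagonist IL1RN. Over all tested genes 11.6% were more than 2-fold lower. Of the 5 tested receptors 0 were, with a median of -0.65, and so few genes cannot be set against that share. Called lower were 2 of these receptors, where 20.8% of all tested genes were. Among 18 tested receptors outside the members, 2 were called more than 2-fold lower and 2 more than 2-fold higher. The difference between the kinds was not tested. The summed level of all cytokine and chemokine ligands among the members, tested or not, was 848 and 861 CPM in PC9 and 189 and 184 CPM in PC9OR.

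The 5 NF-kB subunits, which form the dimers that bind DNA, gave 3 lower genes and a median log2 fold change of -1.68. Of all tested genes, 20.8% were lower. RELA, the p65 subunit that activates transcription in the canonical pathway, was at 82.2 and 56.1 CPM in PC9 and at 20.2 and 19.7 CPM in PC9OR. The PC9 replicates differed from each other but neither came near the PC9OR values. RELA, on chromosome 11 from 65421070 to 65430561 (GRCh37), fell by 1.79 on the log2 scale (SE 0.210, edgeR adjusted p = 0.00738). NFKB1, the p105 precursor of p50 and the usual partner of RELA, had 64.0 and 56.7 CPM in PC9 and 49.5 in each PC9OR library. Its lines did not overlap, but the log2 fold change of -0.28 (SE 0.119, edgeR adjusted p = 0.116) was not called. Without PC9 replicate 2 the value was -0.39. RELA was thus called and NFKB1 was not, and the difference between them was not tested.

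NFKB2, the p100 precursor of p52 in the non-canonical pathway, had 31.3 and 23.4 CPM in PC9 and 9.21 and 7.82 CPM in PC9OR. Its log2 fold change was -1.68 (SE 0.208, edgeR adjusted p = 0.00814). REL, the c-Rel subunit, was at 33.9 and 22.4 CPM in PC9 and 11.9 and 12.9 CPM in PC9OR, which did not overlap. REL fell by 1.18 on the log2 scale (SE 0.233, edgeR adjusted p = 0.0199), by 0.68 with offsets for transcript length, and was not called without PC9OR replicate 1 (adjusted p = 0.0575). Since 49.9% of the 50-base words of REL transcripts occur in another gene annotated in GENCODE, its counts may be uncertain. Whether that gene was in the reference used for counting was not checked. RELB, the partner of p52, was listed at 7.29 and 2.11 CPM in PC9 and at 2.90 and 0 CPM in PC9OR. Those libraries overlapped between the lines, and the log2 fold change of -1.69 carried the largest error of any member (SE 1.57, edgeR adjusted p = 0.425). RELB was called with the replicate number as a block (-2.80, adjusted p = 0.0349) and without PC9OR replicate 1, where the fit rests on the PC9OR library listed at 0 (adjusted p = 0.00365). The log2 fold change of RELB was -0.54 without PC9 replicate 1 (adjusted p = 0.823) and -0.69 without PC9OR replicate 2 (adjusted p = 0.549).

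Inhibitors and nuclear regulators of the pathway were lower in 4 of 5 cases, where 20.8% of all tested genes were lower. TNFAIP3, or A20, which removes ubiquitin chains and stops signalling, had 218 and 154 CPM in PC9 and 20.3 and 20 CPM in PC9OR. It was 9.21-fold lower, a log2 fold change of -3.20 (SE 0.205, edgeR adjusted p = 0.00363). NFKBIZ, a nuclear IkB protein that helps to induce IL6 and LCN2, was at 121 and 102 CPM in PC9 and 21.6 and 22.3 CPM in PC9OR. The replicates were close to each other in both lines, and NFKBIZ fell by 2.34 on the log2 scale (SE 0.138, edgeR adjusted p = 0.00327). BCL3, another nuclear IkB protein, had 6.57 and 3.33 CPM in PC9 and 1.06 and 1.03 CPM in PC9OR. Its fall of 2.23 on the log2 scale (SE 0.435, edgeR adjusted p = 0.0192) was not called without PC9OR replicate 2 (adjusted p = 0.0526).

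NFKBIA, the classical inhibitor IkB alpha, changed by less. It was at 78.3 and 82.5 CPM in PC9 and 42.0 and 41.7 CPM in PC9OR, where the replicates of each line were almost equal. NFKBIA fell by 0.94 on the log2 scale (SE 0.108, edgeR adjusted p = 0.00719), and the call was lost without PC9OR replicate 1 (adjusted p = 0.0529) or replicate 2 (adjusted p = 0.0567). NFKBIE, IkB epsilon, overlapped between the lines at 14.2 and 12.5 CPM in PC9 and 15.7 and 12.9 CPM in PC9OR. Its log2 fold change was 0.10 (SE 0.183, edgeR adjusted p = 0.683), with a sign that turned in 2 of the alternative fits. The 2 inhibitors of this class therefore had different values in the same libraries, a difference that was not tested.

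The other targets included the member with the highest level per length in PC9. LCN2, a secreted iron-siderophore carrier made by inflamed epithelia, had 309 and 195 CPM in PC9 and 12.6 and 13.6 CPM in PC9OR. The PC9 libraries differed widely and were still far above PC9OR, and LCN2 was 19.2-fold lower, at -4.27 on the log2 scale (SE 0.269, edgeR adjusted p = 0.00351). ICAM1, the adhesion ligand of leukocyte integrins, had 85.3 and 70.3 CPM in PC9 and 20.9 and 22.9 CPM in PC9OR. It fell by 1.83 on the log2 scale (SE 0.148, edgeR adjusted p = 0.00471). TNFAIP2, a TNF-induced protein linked to membrane protrusions, was at 606 and 523 CPM in PC9 and at 188 and 186 CPM in PC9OR. Its replicates were close, and its log2 fold change was -1.59 (SE 0.124, edgeR adjusted p = 0.00456).

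Genes of survival signalling and of the response to oxygen radicals and prostaglandins differed among themselves. BIRC3, or cIAP2, an apoptosis inhibitor and ubiquitin ligase of the TNF receptor complex, had 45.2 and 56.3 CPM in PC9 and 16.6 and 17.1 CPM in PC9OR. BIRC3 fell by 1.59 on the log2 scale (SE 0.153, edgeR adjusted p = 0.00547). TRAF1, an adaptor of TNF receptors, was near the filter limit at 1.49 and 1.07 CPM in PC9 and 0.312 and 0.250 CPM in PC9OR. Its fall of 2.17 on the log2 scale (SE 0.476, edgeR adjusted p = 0.0253) lost its call without PC9OR replicate 1 (adjusted p = 0.107) or replicate 2 (adjusted p = 0.147) and on log2(FPKM + 1) (-0.22, adjusted p = 0.0526). PTGS2, cyclooxygenase 2, just missed the threshold, with 2.35 and 3.15 CPM in PC9, 1.16 and 1.31 CPM in PC9OR and a log2 fold change of -1.16 (SE 0.349, edgeR adjusted p = 0.0544). It was called under 4 of 14 alternatives, among them the fit without PC9 replicate 1, which leaves PC9 a single library. SOD2, the mitochondrial superoxide dismutase and a standard NF-kB target, was level between the lines, at 140 and 161 CPM in PC9 and 148 and 153 CPM in PC9OR. The PC9OR values lay between the PC9 values, and the log2 fold change was 0.00 (SE 0.117, edgeR adjusted p = 0.985).

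The order of the members by level changed with the line. Levels of different genes are compared here in FPKM, which divides by transcript length, as the mean of the 2 libraries of a line. In PC9 the highest members were LCN2 at 247 FPKM, TNFAIP2 at 97.1 FPKM, CXCL8 at 75.3 FPKM and IL1B at 61.4 FPKM. In PC9OR the highest was SOD2 at 37.6 FPKM, which had been rank 8 in PC9 at 36.9 FPKM, followed by TNFAIP2 at 31.4 FPKM, TNFRSF1A at 29.2 FPKM and IL6ST at 26.7 FPKM. LCN2 stood at rank 8 in PC9OR with 12.7 FPKM, IL1B moved from rank 4 to rank 18 with 2.90 FPKM, and IL1A from rank 10 to rank 27 with 1.54 FPKM. Of the 4 highest members in PC9OR, SOD2 and TNFRSF1A were not called and TNFAIP2 and IL6ST were lower. Summed over all 46 genes, the members held 3480 and 3200 CPM in PC9 and 1250 CPM in each PC9OR library.

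**Figure D3:**
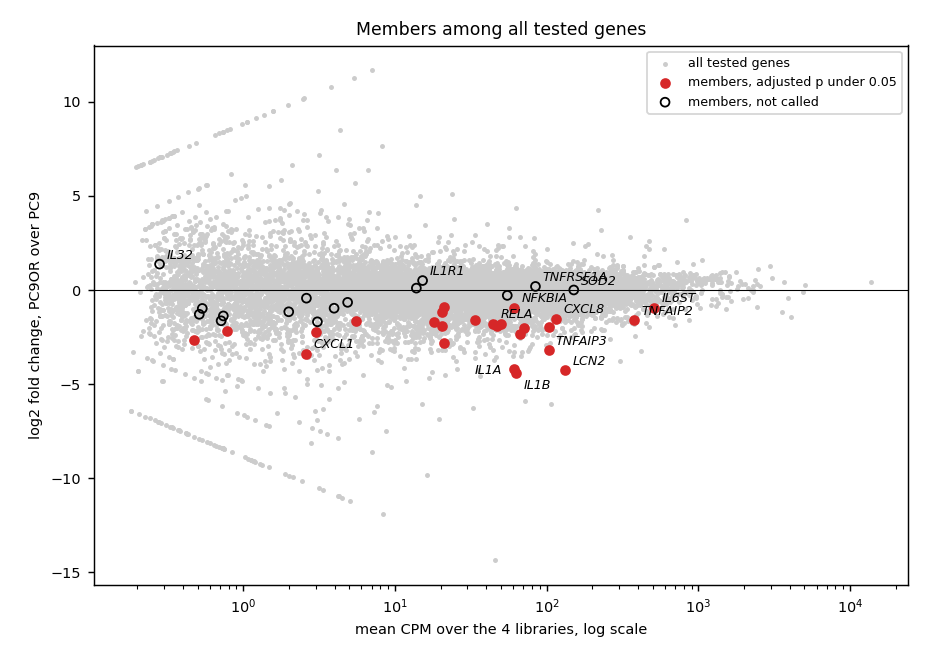
Log2 fold change, PC9OR over PC9, against mean CPM on a log axis for the 13148 tested genes (grey), with called members in red and members not called as open circles. Called members lie below 0 at all levels, and the straight grey streaks at the edges are genes with 0 counts in 1 line, whose fitted values are no bound on the change.

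The list of NF-kB signal transduction genes, which also holds inhibitors of the signal and inflammasome genes, had a median closer to 0 than the cytokines. That difference was not tested. Of 42 such genes, 40 were tested, 12 were lower (30.0%, against 20.8% of all tested genes) and 2 were higher (15.6% of all tested genes were), with a median log2 fold change of -0.22. MYD88, the adaptor of interleukin 1 and Toll-like receptors, was at 23.3 and 20.3 CPM in PC9 and 1.34 and 1.13 CPM in PC9OR. It fell by 4.14 on the log2 scale (SE 0.219, edgeR adjusted p = 0.00283), or 17.6-fold. PYCARD, the inflammasome adaptor, had 0.896 and 0.624 CPM in PC9 and 0 counts in PC9OR, at least 16-fold lower against a floor of 3 counts over both PC9OR libraries. PYCARD passed the filter on low counts through PC9 only. TICAM1, the adaptor of TLR3, was lower at -2.48 (SE 0.425, edgeR adjusted p = 0.0146), IRAK2 at -1.58 (SE 0.131, edgeR adjusted p = 0.00479) and TNIP1, a partner of A20, at -1.57 (SE 0.174, edgeR adjusted p = 0.00683). The kinases RIPK1 of the TNF receptor complex (-1.49, SE 0.176, edgeR adjusted p = 0.00743) and MAP3K14 of the non-canonical pathway (-1.31, SE 0.227, edgeR adjusted p = 0.0149) were lower as well. The 26 genes that were tested and not called made up most of the list.

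Further receptors for inflammatory ligands had 4 lower and 2 higher genes among 18 tested of 29, shares near those of all tested genes (20.8% lower, 15.6% higher), and a median log2 fold change of 0.00. The partners of gp130 went opposite ways. OSMR, the receptor chain for oncostatin M, was at 299 and 205 CPM in PC9 and 48.7 and 48.1 CPM in PC9OR, a log2 fold change of -2.38 (SE 0.207, edgeR adjusted p = 0.00500). LIFR, the chain that binds LIF, was higher, with 7.68 and 8.22 CPM in PC9, 23.1 and 24.2 CPM in PC9OR and a log2 fold change of 1.57 (SE 0.151, edgeR adjusted p = 0.00547). IL18R1, the receptor of interleukin 18, rose by 1.08 on the log2 scale (SE 0.303, edgeR adjusted p = 0.0457), and CSF2RA, the receptor chain for CSF2, fell by 1.06 (SE 0.205, edgeR adjusted p = 0.0190).

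Further NF-kB targets outside the 46 members gave 12 lower (48.0%) and 3 higher genes among 25 tested of 36, with a median log2 fold change of -0.56. The shares over all tested genes were 20.8% lower and 15.6% higher. CFB, complement factor B, was at 32.8 and 31.5 CPM in PC9 and 1.03 and 1.47 CPM in PC9OR, a log2 fold change of -4.68 (SE 0.230, edgeR adjusted p = 0.00249). The cytokine IL7 was called lower (edgeR adjusted p = 0.0114), from 0.682 and 1.14 CPM in PC9 to 1 count in each PC9OR library, which is under the floor, so no fold is given. SERPINB2, an inhibitor of plasminogen activators, fell by 3.6 on the log2 scale (SE 0.532, edgeR adjusted p = 0.0110). The acute phase genes SAA2 (-2.69, SE 0.303, edgeR adjusted p = 0.00696) and SAA1 (-2.35, SE 0.289, edgeR adjusted p = 0.00811), which have 50-base words in common and may share reads, were lower. ZC3H12A, an RNase that degrades IL6 messenger RNA, was lower at -2.39 (SE 0.165, edgeR adjusted p = 0.00391), as was the receptor TNFRSF9 at -1.66 (SE 0.469, edgeR adjusted p = 0.0463). IL7, SERPINB2 and TNFRSF9 passed the filter on low counts through PC9 only. MMP9, a gelatinase, went the other way, from 0.512 and 0.381 CPM in PC9 to 7.40 and 5.72 CPM in PC9OR, and rose by 3.87 on the log2 scale (SE 0.354, edgeR adjusted p = 0.00529).

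Downstream of gp130, 7 of the 13 tested genes of the STAT3 pathway (53.8%) were lower and 2 were higher, with a median log2 fold change of -0.47. Of all tested genes, 20.8% were lower and 15.6% were higher. SOCS3, the feedback inhibitor of gp130, fell by 1.02 on the log2 scale (SE 0.115, edgeR adjusted p = 0.00699). The ligands CNTF (-1.99, SE 0.360, edgeR adjusted p = 0.0163) and CLCF1 (-1.72, SE 0.246, edgeR adjusted p = 0.0105) were lower.

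**Figure D4:**
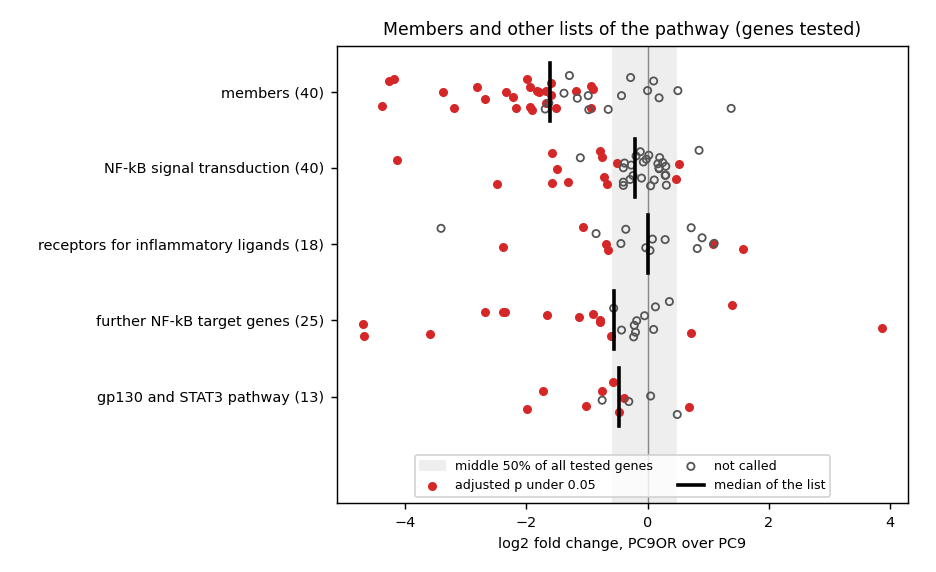
Log2 fold change, PC9OR over PC9, of the tested genes in the 46-member list and in 4 other lists of the pathway, with the number tested in brackets. Red points had an adjusted p under 0.05, black bars are list medians and the grey band holds the middle of all tested genes. The median was -1.61 for the members and between -0.56 and 0.00 for the other lists. Genes with 0 counts in 1 line are counted in the brackets and medians but not drawn, since their fitted values are no bound.

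Markers of other cell types were low but some of them moved with the members. The 10 leukocyte markers summed to 19.1 and 15.3 CPM in PC9 and 8.34 and 7.95 CPM in PC9OR, of which CD68, a lysosomal protein also made outside macrophages, held most. CD3E and TYROBP were at 0 counts in every library, and PTPRC, the common leukocyte antigen, was at 0 in all but PC9 replicate 1, where it had 0.0427 CPM. The 10 fibroblast and endothelial markers summed to 38.7 and 25.7 CPM in PC9 and 6.53 and 7.09 CPM in PC9OR, mostly through CDH5 (34.7 and 24 CPM against 5.06 and 4.78 CPM), while KDR had 0 counts throughout and COL1A1 no more than 0.406 CPM. Of the epithelial markers, EPCAM was at 319 to 343 CPM in the 4 libraries, and KRT8 and KRT18 were at 1430 CPM or more in each. Among the 7 tested epithelial markers, KRT7, KRT8, KRT18 and KRT19 were higher in PC9OR, KRT8 by 1.28 and KRT18 by 1.13 on the log2 scale, CDH1 and EGFR were lower, each at -1.46, and EPCAM was not called. The lung lineage markers NKX2-1, NAPSA and SFTPB were at 0.375 CPM or less, so these markers, defining for lung epithelium, were absent or nearly so. Whether any of these marker differences bears on the members was not tested.

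A stricter limit removed every call. At more than 2-fold and an adjusted p under 0.001, edgeR called 0 members and 0 of all 13148 genes, the smallest adjusted p over all genes being 0.00155. At an unadjusted p under 0.05 and more than 2-fold, 23 members passed and all 23 were lower. The share of all genes at this limit was not counted, so the 23 describe the list only. DESeq2's Wald test called 20 members at the stricter limit, all lower, among 1735 of all 13148 genes called in either direction. The edgeR fit with the replicate number as a block called 17 members, among 1184 genes called in either direction.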

How the data were processed

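RNA from PC9 and PC9OR cells was sequenced in 2 replicates of each line. The members and gene lists were chosen with earlier results of these data known. Per the submitters' processing notes, which give no roles, Bowtie2 2.2.5, RSEM 1.2.12 and GRCh37 were named, and the study's methods name SOAP for read filtering. Whether counting used strand is not given in the sources used here. The authors deposited an expected count per gene, not normalized, an FPKM value, which they scaled by library size and by the length of the transcripts, and that length in bases. A gene absent from a library was set to 0. Symbols were found for 16755 of the 16813 Entrez identifiers (99.66%) in a RefSeq table, and positions were taken from GENCODE v44 lifted to GRCh37.

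Expected counts, as deposited by the authors, were rounded to integers. They were fitted with edgeR 4.0.16 under R 4.3.3 (TMM, filterByExpr, estimateDisp, glmQLFit and glmQLFTest, no replicate block) over 13148 genes with Benjamini-Hochberg adjustment. The standard error is the absolute log2 fold change divided by the square root of F. The study's own tool, DEGseq, pools replicates and was not used here. Sums of expected counts were 23201307 and 29062064 for PC9 and 31948974 and 32203998 for PC9OR, and 3 counts were taken as the floor. Replicates differed beyond counting noise, with a chi-square per degree of freedom of 69.5 in PC9 and 9.80 in PC9OR. Words of 50 bases shared between GENCODE transcripts of different genes marked possible shared reads.

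Every member is named, with values per library for members past the threshold and more than 2-fold changed, for the NF-kB subunits and for NFKBIA. Of the other lists, at most 8 genes each past both limits are named. Values of other members were added for completeness. Some single genes are left out here. Alternatives were DESeq2 1.42.0 size factors and Wald test, library totals, other filters, limma 3.58.1 on log2(FPKM + 1) and log2(FPKM + 0.1), each library left out, a replicate block and offsets for transcript length (mgcv 1.9.3). The fits were tested on simulated data.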

Additional observations from a re-analysis of the deposited data

How the results depend on the processing

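Of the 25 members called lower, 17 kept the call under every one of up to 14 alternatives, 8 lost it under at least 1 (IL1RAP, IL6, IL6ST, TNF, REL, NFKBIA, BCL3 and TRAF1) and 0 changed direction. The number of lower members lay between 24 and 26 under the other normalizations, filters, tests and units, and between 18 and 28 when a library was left out. Leaving out a library leaves 1 library in a line, which is then assumed to vary like the other line. PC9OR varied less than PC9, so a call gained without a PC9 library may rest on too small a spread. More than 2-fold lower were 19 to 24 members under the former and 18 to 24 under the latter. The number of higher members was 1 with log2(FPKM + 0.1) (IL32) and 1 with length offsets, with or without the replicate block (IL1R1). It ranged from 0 to 1 without a library, and 0 members were more than 2-fold higher in any fit. The median log2 fold change was -0.94 with log2(FPKM + 1), where the added value compresses low genes by construction, and -1.76 to -1.49 without a library. SOD2, at 0.00 and between -0.10 and 0.09 without a library, turned to -0.01 with DESeq2 size factors and with DESeq2's Wald test, -0.00 with library totals, -0.10 without PC9 replicate 1, -0.02 without PC9OR replicate 2, -0.02 with length offsets and -0.01 with these and the block. NFKBIE, at 0.10 and between -0.05 and 0.24 without a library, turned to -0.00 without PC9 replicate 2 and -0.05 without PC9OR replicate 1.

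The labels number the replicates without saying that a number marks a shared culture, and the deviations of same-numbered libraries had a correlation of 0.0553, so the numbers were not taken as pairs. With the replicate number as a block, 26 members were lower, 23 by more than 2-fold, and 0 were higher, with a median of -1.59, and RELB gained a call. That fit called 2946 lower and 2593 higher genes among all 13148 tested. Over all genes, 2734 lower and 2056 higher genes became 3978 and 3984 without PC9 replicate 2, 1265 and 580 without PC9OR replicate 1 and 1232 and 540 without PC9OR replicate 2. The floor of 3 counts limits TNF, TRAF1, IL32 and the 6 members that were not tested.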
